A study of Mus musculus with 4 samples.

Results

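Genes that are best known from myeloid cells, 10 in number, were followed in thymocytes: Lyz1, Lyz2, Mpo, Csf1r, Csf2ra, Csf2rb, Fcer1g, Tyrobp, Clec12a and Cebpb. They were matched by symbol, and all 10 were among the 23285 genes of the per-library table. Expression was measured by RNA sequencing in sorted DN3 thymocytes, the CD25-positive precursors that lack CD4 and CD8 and are rearranging their T cell receptor beta genes. The cells came from irradiated recipient mice that had received Gata3(g/g) or wild type (WT) fetal liver cells 16 weeks earlier, and there were 2 libraries of each genotype, all labelled C57BL/6. Gata3(g/g) is labelled a hypomorph, that is, a genotype with reduced gene function. The allele's making and the way donor cells were told from cells left in the recipient were not given in the sources used here, nor was it stated whether the replicates of a genotype came from separate animals. P-values therefore measure the spread between these libraries, which may be technical.

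Myeloid cells are the granulocytes, monocytes, macrophages and dendritic cells, which kill microbes with lysozyme and peroxidase, grow on colony-stimulating factors and signal through small adaptors that carry an immunoreceptor tyrosine-based activation motif (ITAM). Early T cell precursors entering the thymus can still make myeloid cells, and they lose this option as they commit to the T lineage around the passage to DN3. GATA3, a zinc-finger transcription factor needed from the earliest T cell stages, is among the factors that limit other fates in these precursors. The question behind the comparison of Gata3(g/g) with WT libraries is what GATA factors do in DN3 cells.

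Of the 10 genes, Clec12a and Lyz2 carried most of the signal and were the ones that differed between genotypes once the sequencing run was taken into account, so the 250 bases before their annotated starts are shown. They are from RefSeq on GRCm38.p6, on the strand of the gene. The Lyz2 stretch lies at chr10:117282273-117282522 on the minus strand and the Clec12a stretch at chr6:129349994-129350243 on the plus strand. Capitals mark matches, on either strand, to GATAA (the core bound by GATA factors), GAGGAA (a core bound by PU.1) or TTGCNNAA (a core bound by C/EBP factors).
Lyz2: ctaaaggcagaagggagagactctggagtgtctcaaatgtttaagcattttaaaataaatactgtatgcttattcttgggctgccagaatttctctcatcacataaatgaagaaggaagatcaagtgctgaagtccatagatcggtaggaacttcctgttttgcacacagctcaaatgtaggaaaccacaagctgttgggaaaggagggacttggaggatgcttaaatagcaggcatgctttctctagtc
Clec12a: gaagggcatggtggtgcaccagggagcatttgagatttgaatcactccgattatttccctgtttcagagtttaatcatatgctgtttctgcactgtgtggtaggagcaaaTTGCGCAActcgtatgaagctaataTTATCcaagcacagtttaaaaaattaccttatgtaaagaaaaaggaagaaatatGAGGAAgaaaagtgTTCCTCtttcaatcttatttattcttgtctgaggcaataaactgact
The Clec12a stretch held a GATAA match beginning 115 bases before the start, a TTGCNNAA match at 140 bases, and GAGGAA matches at 61 and 47 bases, none of which overlapped another. The Lyz2 stretch held none of these letter strings. Among 32851 such stretches in the RefSeq table, 22.6% held GATAA, 23.3% GAGGAA and 9.56% TTGCNNAA. Of the 7 members with an entry that was read, 2 had GATAA (Lyz1 and Clec12a), 3 had GAGGAA (Mpo, Csf2ra and Clec12a) and 2 had TTGCNNAA (Lyz1 and Clec12a). These are matches of letters and not measured binding.

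Fragments assigned to genes numbered 14331705 to 26901913 per library. By the labels, the replicates 1 shared one sequencing run (run 1 in what follows) and the replicates 2 another (run 2). Values are given as FPKM, fragment counts scaled by the authors to transcript length and library depth. All 14 genes on a list of T-lineage transcripts of the DN3 stage exceeded a mean of 1 FPKM, and Cd3g, the most abundant, stood at 1096 and 1210 FPKM in Gata3(g/g) against 1187 and 1253 FPKM in WT. Without the sequencing run in the model edgeR called 0 of the 14, and 0 of all 10224 tested genes. With the run in the model 2 of the 14 rose and 0 fell, against 3.9% and 2.99% of all tested genes. Those that rose were Il2ra, which encodes CD25 (569 and 492 FPKM in Gata3(g/g), against 277 and 261 FPKM in WT, log2 fold change 0.98 ± 0.181, SE, run-blocked edgeR adjusted p = 0.00262), and the interleukin 7 receptor gene Il7r (47.8 and 51.5 FPKM in Gata3(g/g), against 28.5 and 32.8 FPKM in WT, log2 fold change 0.70 ± 0.123, SE, run-blocked edgeR adjusted p = 0.00171). In the libraries with the label Gata3(g/g), Gata3 itself stood at 120 and 96.1 FPKM, against 62.4 and 58.5 FPKM in WT, and was thus higher in the genotype labelled hypomorphic. Gene-level values cannot tell which stretch of the allele the fragments came from, and every direction below depends on the genotype labels being right. Erythroid and granulocyte transcripts were far more abundant in run 2 than in run 1 in both genotypes, with values given below.

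The myeloid genes fell into an expressed and a barely detected class. Clec12a, Lyz2, Tyrobp, Csf2ra, Cebpb and Fcer1g had mean levels of at least 1 FPKM over the 4 libraries, the minimum for testing, and Csf1r, Csf2rb, Mpo and Lyz1 did not. The mean level of Clec12a was above that of 84.8% of all genes, that of Lyz2 above 81.3%, and that of Fcer1g, the lowest of the 6, above 62.8%. Together the 10 genes took 0.0146% and 0.0142% of all fragments in Gata3(g/g), against 0.00874% and 0.00571% in WT. Clec12a and Lyz2 supplied 79.3% and 84.3% of the fragments of the 10 genes in Gata3(g/g), against 59.5% and 57.8% in WT. By FPKM, which is scaled to transcript length, Clec12a was the highest of the 10 in 3 libraries and Lyz2 in WT replicate 1, where both were close (9.93 FPKM for Lyz2 and 9.20 FPKM for Clec12a).

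**Figure D1:**
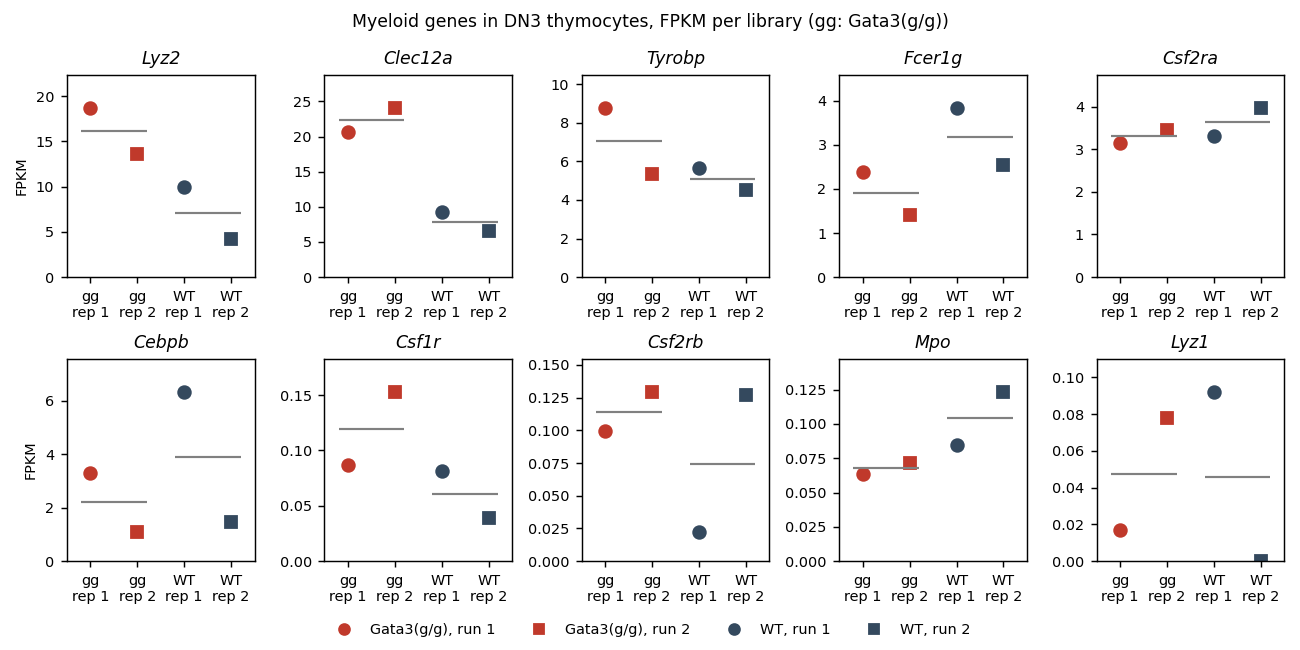
FPKM of each of the 10 myeloid genes in the 4 libraries, with the Gata3(g/g) libraries (gg, red) left of the WT libraries (dark blue), run 1 as circles, run 2 as squares and the genotype mean as a grey line; each panel has its own axis from 0. Clec12a and Lyz2 were higher in both Gata3(g/g) libraries than in either WT library, and the panels of Csf1r, Csf2rb, Mpo and Lyz1 reach at most 0.152 FPKM.

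In the genotype comparison, edgeR's quasi-likelihood test without the run in the model called 0 of the 6 tested members, and 0 of all 10224 tested genes (0%), at a Benjamini-Hochberg adjusted p under 0.05. At an unadjusted p under 0.05 it gave 2 members and 393 genes. With the run as a block in the model, which pairs the libraries of a run and is called run-blocked below, it called 2 of the 6 members, both higher in Gata3(g/g), where 6.9% of all tested genes were called, 3.9% higher and 2.99% lower. DESeq2 called 1 member without the block, where 0.861% of all genes were called, and 2 with it, where 4.08% were. With every gene of at least 1 fragment tested, edgeR called 1 of the 10 members without the block, where 0.272% of all genes were called. By limma on log2(FPKM + 1), 0 of the 6 passed with or without the block. Of all 10224 tested genes, limma called 16 with the block and 5 without it. With the block the limma adjusted p was 0.1098 for Clec12a and 0.1392 for Lyz2. Members that passed the minimum level are a selected subset, and their median log2 fold change with the block, 0.16 over 6 genes against 0.01 over all tested genes, is given as a description. The log2 fold changes below, each with its standard error (SE), are run-blocked edgeR values unless stated, and positive ones mean higher in Gata3(g/g).

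Lyz2 encodes the lysozyme of macrophages and granulocytes, an enzyme that cleaves bacterial cell walls, and it lies on chromosome 10 from 117277541 to 117282272 (mm10, minus strand). It stood at 18.7 and 13.6 FPKM in Gata3(g/g), against 9.93 and 4.20 FPKM in WT. Both Gata3(g/g) values were above both WT values, and within each genotype run 1 was the higher. The means were 16.1 ± 3.61 FPKM in Gata3(g/g) and 7.06 ± 4.05 FPKM in WT (SD, n = 2 each). The log2 fold change was 1.27 ± 0.198 (SE, run-blocked edgeR adjusted p = 0.00061), and without the block it was 1.19 ± 0.461 (SE, adjusted p = 0.9997 by edgeR). In the model without the block it was 1.92 when WT replicate 1 was left out and 0.71 when WT replicate 2 was. Within run 1 the Gata3(g/g) library had 1.91 times the WT level per library size, with a 95% exact interval of 1.69 to 2.17, and within run 2 it had 3.18 times the WT level, with an interval of 2.56 to 3.99. These intervals cover counting error only. They did not overlap, but with 1 library per genotype and run the difference between runs cannot be tested.

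Lyz1 encodes the related lysozyme of intestinal Paneth cells and lies beside Lyz2, from 117287795 to 117292868 on chromosome 10. It was at 1 and 3 fragments in Gata3(g/g) and at 4 and 0 fragments in WT, the last allowing up to 0.209 CPM (the CPM, or counts per library size, of 3 fragments). No direction can be read from counts this low. Of the 50-base windows of the GENCODE transcripts of Lyz2, 15.4% also occur in Lyz1 transcripts, so that a share of fragments could have been assigned to either gene. With 102 to 882 Lyz2 fragments per library against at most 4 for Lyz1, nearly all lysozyme fragments were assigned to Lyz2. Mpo encodes myeloperoxidase, the peroxidase of neutrophil granules, and lies on chromosome 11 from 87793784 to 87804412. It had 8 and 6 fragments in Gata3(g/g), against 8 and 8 in WT. By FPKM, 0.0638 and 0.0714 in Gata3(g/g) against 0.0849 and 0.123 in WT, the groups did not overlap, but the ratio of counts was 0.761 in run 1 with a 95% exact interval of 0.249 to 2.33, so that a difference was not detectable at this depth.

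Clec12a encodes an inhibitory C-type lectin receptor of myeloid cells that binds uric acid crystals released by dying cells. It lies on chromosome 6 from 129350244 to 129365303 (plus strand), and no other GENCODE gene shares its exons. It stood at 20.7 and 24.0 FPKM in Gata3(g/g), against 9.20 and 6.60 FPKM in WT. The groups were well separated, and the lower Gata3(g/g) value was more than the sum of both WT values. The means were 22.4 ± 2.35 FPKM in Gata3(g/g) and 7.90 ± 1.84 FPKM in WT (SD, n = 2 each). The log2 fold change was 1.51 ± 0.163 (SE, run-blocked edgeR adjusted p = 1.35e-05) and without the block 1.51 ± 0.241 (SE, adjusted p = 0.4125 by edgeR). DESeq2 called the gene without the block as well (adjusted p = 0.000418). The q-value of Clec12a in the authors' deposited table was 0.000264. For Lyz2 the authors' deposited table, in which 4.1% of tested genes were called at a q-value under 0.05, gave 0.00198. The Clec12a ratio was 2.28 within run 1, with a 95% exact interval of 2.097 to 2.478, and 3.61 within run 2, with an interval of 3.22 to 4.05.

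Clec12a and Lyz2 were both higher in Gata3(g/g), and for both the difference was larger in run 2. On the log2 CPM scale it was 1.19 within run 1 and 1.85 within run 2 for Clec12a. For Lyz2 it was 0.93 and 1.66. The levels themselves moved differently between runs, with 1 library per genotype and run. From run 1 to run 2, Clec12a differed by 0.22 on the log2 CPM scale in Gata3(g/g) and by -0.44 in WT, whereas Lyz2 differed by -0.48 in Gata3(g/g) and by -1.20 in WT. Of 11 other C-type lectin receptor genes, 2 passed the minimum level. Clec2d, which encodes a ligand of a natural killer cell receptor and is expressed in many leukocytes, rose (29.3 and 19.3 FPKM in Gata3(g/g), against 15.9 and 12.1 FPKM in WT, log2 fold change 0.78 ± 0.142, SE, run-blocked edgeR adjusted p = 0.00235). Clec2i had a log2 fold change of 0.51 ± 0.177 (SE, run-blocked edgeR adjusted p = 0.1). Clec9a and Clec12b, related lectin receptor genes, had at most 9 fragments in any library.

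**Figure D2:**
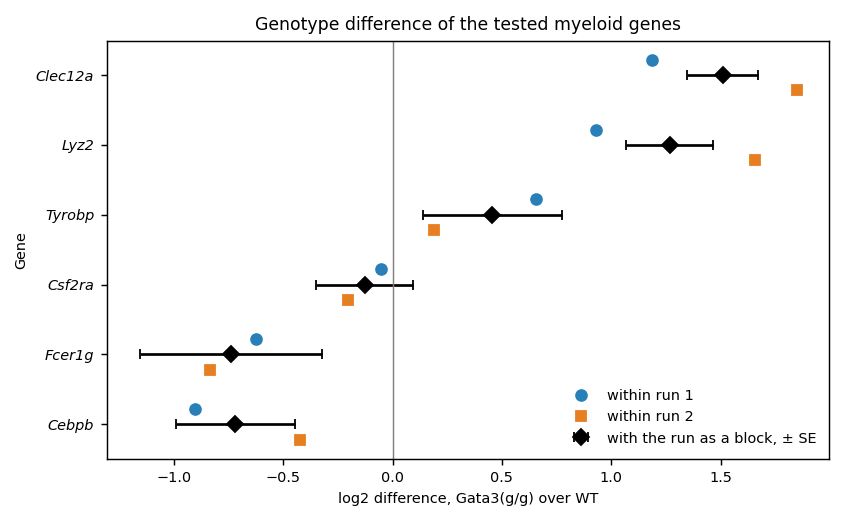
Log2 difference of Gata3(g/g) over WT for the 6 tested myeloid genes: edgeR with the run as a block (black diamonds, bars ± SE), and the difference in log2 CPM within run 1 (blue circles) and within run 2 (orange squares). Clec12a (1.51) and Lyz2 (1.27) lie to the right of 0 in both runs, Tyrobp, Csf2ra, Fcer1g and Cebpb did not pass the test, and the 2 runs differed in the size of most differences.

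Fcer1g and Tyrobp encode the small ITAM adaptors Fc receptor gamma chain and DAP12, through which Fc receptors and many activating receptors of myeloid and natural killer cells signal. The Fcer1g gene lies on chromosome 1 from 171229572 to 171234349. Its values were 2.39 and 1.41 FPKM in Gata3(g/g), against 3.83 and 2.55 FPKM in WT. The groups did not overlap, although Gata3(g/g) replicate 1 lay close under WT replicate 2. The log2 fold change of −0.74 ± 0.416 (SE) did not pass (run-blocked edgeR adjusted p = 0.3332), with 24 to 75 fragments per library. The ratio was 0.639 within run 1 (95% exact interval 0.450 to 0.906) and 0.543 within run 2 (0.308 to 0.943), counting error only.

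Tyrobp, on chromosome 7 from 30413788 to 30417579, stood at 8.74 and 5.32 FPKM in Gata3(g/g), against 5.64 and 4.53 FPKM in WT. The groups overlapped, since Gata3(g/g) replicate 2 was below WT replicate 1. Its log2 fold change was 0.46 ± 0.317 (SE, run-blocked edgeR adjusted p = 0.4511); the run 1 difference was 0.66 and the run 2 difference 0.19. Among the 6 tested members, 3 had genotypes that did not overlap in FPKM, Lyz2 and Clec12a higher and Fcer1g lower in Gata3(g/g), where 29% of all tested genes did not overlap.

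Receptors that pair with these adaptors were barely detected. Trem1 and Trem2, whose products signal through DAP12, did not exceed 10 fragments in any library, and Fcgr1 and Fcgr3, Fc receptors that use the Fc receptor gamma chain, did not exceed 8. Of 27 genes on a list of ITAM adaptors, partner receptors and kinases, 10 passed the minimum level, 2 rose and 0 fell, against 3.9% and 2.99% of all tested genes. Those that rose were Lat2, an adaptor of myeloid and B cell signalling related to LAT (18.4 and 15.4 FPKM in Gata3(g/g), against 11.1 and 7.80 FPKM in WT, log2 fold change 0.85 ± 0.147, SE), and Plcg2, a phospholipase C downstream of SYK (8.86 and 7.16 FPKM against 5.80 and 4.66 FPKM, log2 fold change 0.62 ± 0.137, SE). Their adjusted p-values by edgeR were 0.00155 and 0.0103 with the block and 0.9997 for both without it. Hcst, which encodes DAP10, the partner adaptor of natural killer receptors, stood at 20.3 and 23.7 FPKM in Gata3(g/g), against 29.1 and 25.0 FPKM in WT, and did not pass. The T cell receptor ITAM chains Cd3g, Cd3e and Cd3d had log2 fold changes of −0.08, −0.20 and −0.40 and did not pass either.

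Csf1r, Csf2ra and Csf2rb encode the receptor for macrophage colony-stimulating factor and the alpha and common beta chains of the receptor for granulocyte-macrophage colony-stimulating factor. Csf2ra, on chromosome 19 from 61224402 to 61228418, was the steadiest of the 6 tested members. Its values were 3.15 and 3.46 FPKM in Gata3(g/g), against 3.32 and 3.96 FPKM in WT. The groups overlapped, and the log2 fold change was −0.13 ± 0.222 (SE, run-blocked edgeR adjusted p = 0.796).

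The signalling chain it pairs with was far lower. Csf2rb had 24 and 21 fragments in Gata3(g/g) (0.0992 and 0.129 FPKM), against 4 and 16 fragments in WT (0.0220 and 0.127 FPKM). WT replicate 1 alone was low. The ratio was 4.57 within run 1, with a 95% exact interval of 1.57 to 18.1, and 1.009 within run 2, with an interval of 0.502 to 2.07. Its close paralog Csf2rb2, an interleukin 3 receptor chain of mice, had 14 and 15 fragments in Gata3(g/g), against 6 and 5 in WT. Of the 50-base windows of Csf2rb transcripts, 12.3% also occur in Csf2rb2, so the split between the paralogs is uncertain.

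Csf1r had 17 and 20 fragments in Gata3(g/g) (0.0871 and 0.152 FPKM), against 12 and 4 in WT (0.0818 and 0.0394 FPKM). The ratio was 1.08 in run 1 (95% exact interval 0.485 to 2.47) and 3.84 in run 2 (1.29 to 15.5). In GENCODE, 873 exonic bases of Csf1r overlap exons of Hmgxb3 on the opposite strand, and without a stated strand setting fragments of the genes cannot be told apart there. The same holds for 512 exonic bases of Mpo, which overlap the antisense gene Gm11505, and for 312 of the 1504 exonic bases of Cebpb, which overlap Tmem189. When every gene with at least 1 fragment was tested, Csf1r, Csf2rb, Mpo and Lyz1 all had adjusted p-values of at least 0.9744 by edgeR with the block, where 4.63% of genes were called.

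Of 12 other myeloid cytokine and chemokine receptor genes, 3 passed the minimum level and 1 rose, where 3.9% of all tested genes did. Il10ra, a receptor chain for the anti-inflammatory cytokine interleukin 10, stood at 14.2 and 10.97 FPKM in Gata3(g/g), against 7.63 and 6.93 FPKM in WT (log2 fold change 0.79 ± 0.14, SE, run-blocked edgeR adjusted p = 0.0019). Il3ra, which pairs with the Csf2rb chain, stood at 4.42 and 2.55 FPKM in Gata3(g/g), against 4.42 and 2.24 FPKM in WT. The stem cell factor receptor gene Kit stood at 5.34 and 6.90 FPKM in Gata3(g/g), against 5.18 and 5.42 FPKM in WT, and neither passed. Csf3r, the receptor gene for granulocyte colony-stimulating factor, had at most 12 fragments in any library.

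Cebpb encodes a C/EBP transcription factor that drives macrophage and granulocyte genes and is induced by inflammatory signals. The gene has a single exon and lies on chromosome 2 from 167688915 to 167690418. Its values were 3.31 and 1.09 FPKM in Gata3(g/g), against 6.32 and 1.45 FPKM in WT. The groups overlapped, and run 1 exceeded run 2 in both genotypes. On the log2 CPM scale run 2 differed from run 1 by −1.58 in Gata3(g/g) and by −2.06 in WT. The log2 fold change of −0.72 ± 0.273 (SE) did not pass (run-blocked edgeR adjusted p = 0.1312). It was −0.90 within run 1 and −0.42 within run 2. In the model without the block, leaving out WT replicate 1 turned the direction of the log2 fold change (0.58). That fit sets the run 2 WT library alone against Gata3(g/g) libraries of both runs.

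Between the runs, with genotype in the model, edgeR called 2 of the 6 tested members, both lower in run 2, where 34.8% of all tested genes were called and 17.3% were lower. Cebpb had a log2 difference of −1.86 ± 0.278 (SE, adjusted p = 0.000112 by edgeR) for run 2 against run 1. Lyz2 had a log2 difference of −0.81 ± 0.197 (SE, adjusted p = 0.00492 by edgeR), and without the genotype term it did not pass (adjusted p = 0.4519 by edgeR). Lyz2, Tyrobp, Fcer1g and Cebpb were all lower in run 2 than in run 1 in both genotypes. The share of all tested genes that were lower in this way was not computed, so this is a description only. Fos, an immediate-early gene named after its values were seen, stood at 152 and 2.22 FPKM in Gata3(g/g) and at 224 and 1.21 FPKM in WT, thus moving with the run in the direction of Cebpb. Its part in the Cebpb difference was not tested.

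The summed level of granulocyte granule genes was higher in run 2, where Lyz2 was lower. Of 16 granulocyte granule genes, 4 passed the minimum level, 0 of them called by genotype, and their summed level was 16.3 and 68.4 FPKM in Gata3(g/g), against 18.3 and 67.0 FPKM in WT. S100a8, a calcium-binding protein of neutrophils, was listed at 0 and 40.2 FPKM in Gata3(g/g), against 0.660 and 33.3 FPKM in WT, so that it stood high in run 2 in both genotypes. Ctsc, which encodes the protease cathepsin C, did not follow this pattern, with 15.7 and 12.8 FPKM in Gata3(g/g), against 17.0 and 14.7 FPKM in WT, and it made up most of the run 1 sums. The 9 erythroid markers summed to 2.45 and 596 FPKM in Gata3(g/g), against 1.68 and 467 FPKM in WT. Of the 8 that passed the minimum level, 1 rose by genotype with the block, the alpha globin gene Hba-a2 (0 and 414 fragments in Gata3(g/g), against 0 and 115 fragments in WT, run-blocked edgeR adjusted p = 0.0275, and 0.9806 by DESeq2 with the block), whose fragments may be shared with its near-identical neighbour Hba-a1. In run 2, where granule and erythroid transcripts were high, the 10 myeloid genes summed to 49.3 FPKM in Gata3(g/g) and 23.6 FPKM in WT. In run 1, where those transcripts were low, they summed to 57.2 FPKM in Gata3(g/g) and 38.5 FPKM in WT. Within run 1, where each granule gene other than Ctsc had at most 8 fragments in either library, the Gata3(g/g) library had 1.91 times the WT level of Lyz2 and 2.28 times that of Clec12a. The part of transcripts from other cell types in these differences was not tested.

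**Figure D3:**
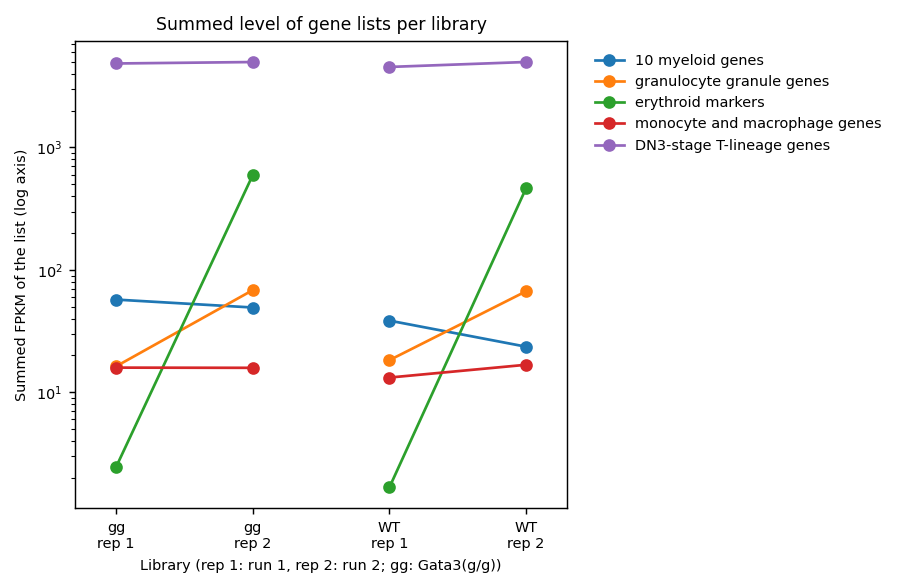
Summed FPKM of gene lists in each library on a log axis, with Gata3(g/g) (gg) left of WT; lines join replicate 1 (run 1) and replicate 2 (run 2) of a genotype. The sums of erythroid markers and of granulocyte granule genes were higher in run 2 in both genotypes. The sum of the 10 myeloid genes was lower in run 2, and within each run the Gata3(g/g) sum exceeded the WT sum. Clec12a and Lyz2 were its largest parts in both Gata3(g/g) libraries. Taken singly, by log2 CPM, 5 of the 10 genes lay above WT in both runs and 4 (Csf2ra, Fcer1g, Cebpb and Mpo) lay below. Only 4 of the 10 were lower in run 2 in both genotypes.

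Of 24 monocyte and macrophage genes, 3 passed the minimum level and 0 were called. Their summed level was 15.9 and 15.9 FPKM in Gata3(g/g), against 13.2 and 16.8 FPKM in WT. Cd68, a lysosomal protein gene of macrophages, stood at 3.27 and 2.96 FPKM in Gata3(g/g), against 2.96 and 6.02 FPKM in WT, and Ms4a6c at 3.28 and 4.88 FPKM in Gata3(g/g), against 2.85 and 2.95 FPKM in WT. The defining macrophage gene Emr1, which encodes F4/80, had 6 and 7 fragments in Gata3(g/g), against 8 and 0 in WT. In bulk samples, fewer cells of a type and less RNA per cell cannot be told apart. Of 15 dendritic cell genes 3 passed the minimum level and 0 were called. The most abundant, the protease inhibitor gene Cst3, stood at 99.0 and 101 FPKM in Gata3(g/g), against 92.1 and 78.0 FPKM in WT. Of 13 mast cell, basophil and eosinophil genes only Cpa3, a mast cell carboxypeptidase gene, passed the minimum, and it fell (186 and 70 fragments in Gata3(g/g), against 2218 and 1756 fragments in WT; log2 fold change −4.44 ± 0.212, SE, run-blocked edgeR adjusted p = 8.55e-10). The natural killer list held 1 gene above the minimum, the granule protein gene Nkg7, which rose (log2 fold change 1.02 ± 0.14, SE, run-blocked edgeR adjusted p = 0.000169), and each of its other genes had at most 35 fragments in any library. The highest count was that of Tbx21, the T-bet gene, with 35 and 22 fragments in Gata3(g/g), against 16 and 8 in WT, while Ncr1 and Klre1 had at most 3.

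Of 14 myeloid transcription factor genes on a list beside Cebpb, 7 passed the minimum level, 3 rose and 0 fell with the block, against 3.9% and 2.99% of all tested genes, and 0 were called without it. Nfe2, a basic leucine zipper factor of megakaryocytes and erythroid cells, stood at 17.5 and 13.0 FPKM in Gata3(g/g), against 9.19 and 7.44 FPKM in WT (log2 fold change 0.87 ± 0.145, SE, run-blocked edgeR adjusted p = 0.00108). Sfpi1, the older symbol of the PU.1 gene, rose by 1.17 ± 0.276 (SE, run-blocked edgeR adjusted p = 0.0159); the run 1 difference was 0.98 and the run 2 difference 1.34. Id2, an inhibitor of E proteins, rose by 0.77 ± 0.224 (SE, run-blocked edgeR adjusted p = 0.0487); its run 1 difference was 0.20 and its run 2 difference 1.48. When 1 library was left out, with no block, its log2 fold change was −0.13 without WT replicate 2 and 1.90 without WT replicate 1, and DESeq2 with the block called neither Sfpi1 (adjusted p = 0.0780) nor Id2 (adjusted p = 0.118). Cebpg, a widely expressed C/EBP relative, stood at 11.1 and 9.50 FPKM in Gata3(g/g), against 9.41 and 8.81 FPKM in WT, and did not pass. Cebpa, the C/EBP factor that directs granulocyte and monocyte progenitors, had 10 to 33 fragments per library and was below the minimum level. Klf4, a macrophage and stress-response factor, had 1516 and 28 fragments in Gata3(g/g), against 1897 and 23 in WT, and so was high in run 1 in both genotypes, like Cebpb.

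For each tested member, the tested genes with the nearest profile were found by the root mean square difference of log2 CPM, centred on each gene's own mean over the 4 libraries. The nearest to Clec12a were the homeobox gene Hoxa5 (0.09), Bex6 (0.127) and Rapgef2 (0.137). Hoxa5 stood at 5.85 and 6.51 FPKM in Gata3(g/g), against 2.18 and 1.69 FPKM in WT. The nearest to Lyz2 were Pde2a (0.109), Ube2l6 (0.127) and Serpinb6b (0.129). Like Lyz2 they were lower in run 2 than in run 1 in both genotypes, which follows from how they were chosen. The nearest to Fcer1g were Irf8 (0.037), Txnrd2 (0.07) and Mettl1 (0.078). Irf8, a transcription factor gene of monocytes and dendritic cells, stood at 1.87 and 1.02 FPKM in Gata3(g/g), against 2.76 and 1.90 FPKM in WT (run-blocked edgeR adjusted p = 0.0935). The nearest to Cebpb were the immediate-early gene Egr1 (0.122), Rgs2 (0.122) and Bambi (0.202). The nearest to Tyrobp were Ppp2r5b (0.013), Slc35a5 and Cd72, and the nearest to Csf2ra were Lyrm2 (0.013), Vopp1 and Fam86. Profiles over 4 libraries are short, and many genes lie close to a member that varied little.

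**Figure D4:**
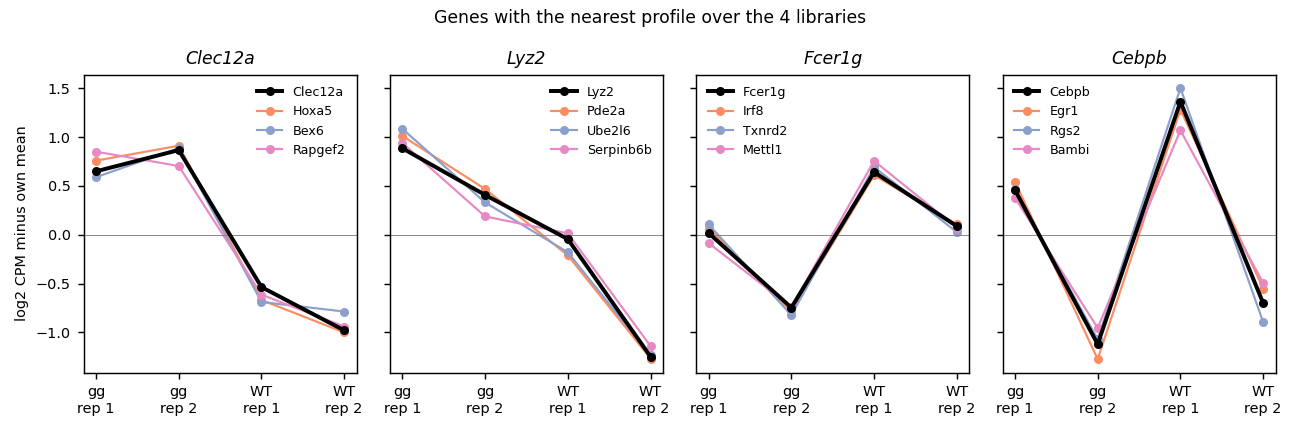
Log2 CPM minus each gene's own mean in the 4 libraries (Gata3(g/g), gg, left of WT) for Clec12a, Lyz2, Fcer1g and Cebpb (black) and the 3 tested genes nearest to each (coloured); lines join libraries only to guide the eye. Clec12a separates by genotype and Cebpb by run, and the coloured genes do likewise because they were chosen by these same values. Lyz2 is higher and Fcer1g lower in Gata3(g/g) within each run, and both are lower in run 2 than in run 1 within each genotype.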

How the data were processed

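RNA of 4 libraries was sequenced after column purification and NuGEN Encore Complete library preparation, per the labels' protocols. Per the submitters' processing notes, the authors' tools were Cuffdiff 2.1.1, Bowtie2 2.1.0 and TopHat2 2.0.8b, on mm10; annotation and strand setting were not given in the sources used here. Per the file headers, the authors deposited an estimated count of fragments and an FPKM value per gene and library, and a table of mean FPKM, log2 fold change, p-value and q-value per gene. Left out were 3 genes marked too deep to estimate; 5 values marked as failed were kept. Estimated counts, of which 97.2% to 98.6% above 0 were within 0.01 of a whole number, were rounded.

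Tested were the 10224 genes whose FPKM averaged 1 or more, with edgeR 4.0.16 (R 4.3.3; quasi-likelihood, two-sided, TMM factors 0.983 to 1.02, Benjamini-Hochberg), with limma 3.58.1 and DESeq2 1.42.0 as alternatives. The main model held genotype alone (2 residual degrees of freedom). The labels place same-numbered replicates in 1 sequencing run, so the run was added as a replicate block (1 residual degree of freedom); over genes, run differences in the genotypes correlated at 0.754 (Pearson, a description). On simulated data with known genotype changes, the edgeR model without the block called no changed gene and the run-blocked model most of them. The simulated run difference was the same in both genotypes, as the run-blocked model assumes. The simulation therefore cannot show which model is better for the real libraries. Where run differences are shared in this way, a lack of calls without the block says little. Whether the run differences of the real libraries are shared to that degree was not tested. Within-run values are log2 CPM with a prior count of 2; intervals are 95% Clopper-Pearson on counts scaled by effective library size and cover counting error only. A floor of 3 fragments is 0.112 to 0.209 CPM. An exact permutation test of 2 against 2 libraries cannot go below p = 0.333 and was not used. Named were all members, most genes of the lists called with or without the block or among their list's 3 highest, and the 3 nearest profiles; genes given only as barely detected were named after their values were seen. Members and lists were chosen with earlier results of these data known. Promoters are from RefSeq (GRCm38.p6, the mm10 assembly), exons and transcripts from GENCODE M21. Positions count from 1.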

Additional observations from a re-analysis of the deposited data

How the results depend on the processing

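The count of genes called by genotype, 0 in the model without the run, was 705 with the replicate block, 674 with the block and total-fragment scaling only (464 higher and 210 lower, against 399 and 306 with TMM), 926 with the block and a minimum of 0.1 FPKM, 988 with the block and no filter, and 58 without the block and no filter. DESeq2 called 88 genes without and 417 with the block, limma on log2(FPKM + 1) 5 without and 16 with it, and limma on log2(FPKM + 0.1) 4. Leaving out 1 library, without the block, gave 1 to 11 genes. Members called numbered 0 in the model without the run, 1 by DESeq2 and by edgeR with no filter (Clec12a in both), and 2, Lyz2 and Clec12a, in each of the edgeR and DESeq2 fits with the replicate block, whatever the filter or scaling. By limma with the block 0 members passed (adjusted p = 0.1098 for Clec12a and 0.1392 for Lyz2). Leaving out 1 library gave 0 members called. The log2 fold change of Lyz2 then ranged from 0.71 without WT replicate 2 to 1.92 without WT replicate 1, and that of Clec12a from 1.30 to 1.73, with adjusted p-values of at least 0.215 and 0.0899; these fits have 3 libraries and cannot hold the block.

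Directions turned for Cebpb without WT replicate 1 (from −1.83 to 0.58 over the libraries left out), for Csf2ra without WT replicate 2 (−0.29 to 0.0129), for Id2 without WT replicate 2 (−0.13 to 1.90), for Cd3e without Gata3(g/g) replicate 1 or WT replicate 2 (−0.56 to 0.19), for Hba-a2 without Gata3(g/g) replicate 2 (−9.39 to 10.96, fitted against libraries at 0 and no measure of size), for Lyz1 with no filter and the block (0.16, against −0.16 without it) and for the run difference of Clec12a without the genotype term (0.0479). Genes called between runs numbered 3560, against 2263 by DESeq2, 4224 with no filter (1410 higher and 2814 lower in run 2, against 1794 and 1766), and 751 without the genotype term, where 1 member (Cebpb) passed in place of 2. Depth limits Csf1r, Csf2rb, Mpo and Lyz1, with at most 24 fragments in any library.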
